A study of Mus musculus with 26 samples.

Results

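The immediate early response genes are a set of 10 genes, Ier2, Ier5, Fos, Jun, Junb, Egr1, Atf3, Klf6, Myc and Dusp1, of the 55487 genes with a TPM value (a level per transcript length, scaled to the same total in each cell) in single blastomeres of mouse 8-cell embryos. The set was built around Ier2, which was taken because its RNA was higher in the blastomeres of embryo 1, and the other 9 genes were added by name. The question was whether these 9 genes followed Ier2. RNA and DNA came from the same cell by scRR-seq, which lyses a cell, keeps its chromatin on magnetic beads and takes the RNA from the liquid.

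Both embryos came from in vitro fertilization of C57BL/6 gametes, with no treatment or altered allele given in the labels. They were taken at the 8-cell stage, and blastomeres were separated by hand and picked by mouth pipette. Embryo 1 gave 3 cells (cells 1, 6 and 7) and embryo 2 gave 6 (cells 2, 3, 5, 6, 7 and 8). With 1 embryo on each side there is no replicate of the comparison, and SDs give only the spread among cells.

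Immediate early genes are switched on within minutes of a signal from transcription factors that are already in the cell, such as SRF with its ETS partners and CREB, so their first transcription needs no new protein. Most encode transcription factors: Fos and Jun proteins pair as AP-1, Egr and Klf proteins are zinc finger factors, and Myc drives growth genes. Their mRNAs are short-lived, partly through AU-rich elements, and Dusp1, a phosphatase of MAP kinases, shuts the same pathway down. By the 8-cell stage the mouse embryo transcribes its own genome, and members of the Klf family are among its regulators.

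To show promoters of genes with little RNA here beside those of genes with RNA in most cells, windows of 250 bases before to 50 after the start site were read from RefSeq (GRCm38.p6). Windows of 7 members were used (Ier5, Atf3, Jun, Junb, Fos, Klf6 and Dusp1), and Ier2, Myc and Egr1 were not matched. Fos and Junb are shown as members at or near 0 in most cells, Dusp1 as a member with RNA in 8 cells, and Klf2 as the immediate early gene outside the set that is described later. Capitals mark TGACGTCA (the cAMP response element, CRE), its half-site TGACG or CGTCA, which overlaps the full element, and TATAAA (the TATA box).
Fos (chr12:85473640-85473939, plus strand): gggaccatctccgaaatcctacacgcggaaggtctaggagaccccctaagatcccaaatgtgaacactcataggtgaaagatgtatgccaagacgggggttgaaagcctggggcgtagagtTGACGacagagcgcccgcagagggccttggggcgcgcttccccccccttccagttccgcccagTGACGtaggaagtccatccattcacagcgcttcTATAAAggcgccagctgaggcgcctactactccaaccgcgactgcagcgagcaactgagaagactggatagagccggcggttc
Junb (chr8:84978699-84978998, minus strand): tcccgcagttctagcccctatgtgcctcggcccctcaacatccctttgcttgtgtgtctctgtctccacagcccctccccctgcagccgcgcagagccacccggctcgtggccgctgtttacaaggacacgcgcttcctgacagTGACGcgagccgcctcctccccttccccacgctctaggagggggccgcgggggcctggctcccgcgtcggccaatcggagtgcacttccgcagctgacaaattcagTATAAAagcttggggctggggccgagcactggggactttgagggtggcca
Dusp1 (chr17:26508423-26508722, minus strand): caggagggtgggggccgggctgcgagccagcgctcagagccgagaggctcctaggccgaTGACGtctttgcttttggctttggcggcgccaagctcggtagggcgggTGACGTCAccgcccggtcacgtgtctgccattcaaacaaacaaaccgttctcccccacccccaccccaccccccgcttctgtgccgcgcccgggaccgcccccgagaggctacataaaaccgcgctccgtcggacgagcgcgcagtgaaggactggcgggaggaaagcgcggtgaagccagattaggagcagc
Klf2 (chr8:72318812-72319111, plus strand): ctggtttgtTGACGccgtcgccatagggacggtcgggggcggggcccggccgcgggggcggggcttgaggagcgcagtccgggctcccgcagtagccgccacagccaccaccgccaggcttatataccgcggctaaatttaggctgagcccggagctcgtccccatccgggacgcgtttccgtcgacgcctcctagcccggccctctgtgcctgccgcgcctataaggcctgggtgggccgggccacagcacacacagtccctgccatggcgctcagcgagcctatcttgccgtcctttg

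The Dusp1 window held the full CRE, 143 bases before the start site, and it was the only one of the 7 members' windows with it. The same 8 letters were found in 1.79% of all 32851 windows. The half-site was present in the windows of Atf3, Junb, Fos and Dusp1, with 20.8% of all windows holding it. Fos carried it at 2 places, 129 and 66 bases before the start, and Klf2 once, at 241 bases before the start. TATAAA was found in the Fos window, 33 bases before the start, and in the Junb window, beginning at the RefSeq start itself. Of all windows, 13.6% held it. The windows of Jun, Ier5 and Klf6 held none of these 3 motifs as spelled. Only the exact letters TATAAA were searched, so close forms, such as TATATAAG in the Ier5 window, were not counted. The other motifs searched on both strands were TGANTCA (the AP-1 site, in 7.81% of all windows), the CArG box (1.63%), CCAAT (37.4%) and GGGCGG (35.7%). The first pair was in none of the 7 members' windows. CCAAT was in the windows of 5 members (Ier5, Atf3, Jun, Junb and Klf6) and GGGCGG in those of 6, all but Junb. Promoters with a CRE half-site thus belonged both to genes at 0 in most cells (Fos, Atf3) and to one with RNA in 8 of 9 (Dusp1).

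All 9 cells had the RNA of blastomeres. Of 12 blastomere markers, all had a mean above 1 TPM, and 11 or 12 of them were above 1 TPM in each cell. Of 12 cumulus and granulosa cell markers, 3 had a mean above 1 TPM (Amhr2, Nr5a2 and Inhbb), and Amh, Fshr, Has2, Tnfaip6 and Cyp19a1 were listed at 0 in every cell. Their summed level was between 128 and 205 TPM in embryo 1 against 77.0 to 145 TPM in embryo 2. Of 6 sperm markers, 4 were listed at 0 throughout and Prm1 and Prm2 were at most 1.62 TPM. Genes with TPM > 1 numbered 11088 to 13319 per cell in embryo 1 and 11058 to 12978 in embryo 2. Mitochondrial genes took 4.28% to 6.77% of the TPM in embryo 1 and 5.98% to 18.2% in embryo 2. Replicated bins made up 0.0039% to 3.54% of the bins with a state in embryo 1 and 62.4% to 80.5% in embryo 2. Xist RNA was 140 to 181 TPM in embryo 1 and at most 0.90 TPM in embryo 2. Embryo, replication and sex-linked RNA divided the cells in the same way and cannot be told apart. Sample numbers 11 to 17 (1 cell of embryo 1, 2 of embryo 2) and 20 to 25 (2 and 4 cells) were lysed by the protocols scRR3 and scRR1. These differ in the volume of lysis buffer and in later steps. In embryos, the paper reports fewer transcripts and a bias to the 3' end with scRR1. The scRR3 cells had 12411 to 13319 genes with TPM > 1, and the scRR1 cells 11058 to 11960. Differences are therefore also given within each range for some genes and lists where they moved.

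Most members had little RNA in any cell. Of the 90 values (10 genes in 9 cells), 38 were listed at 0 and 42 were above 1 TPM. Mean levels over the 9 cells were 21.6 TPM for Myc, 16.9 for Ier2, 4.31 for Dusp1, 4.19 for Jun, 1.16 for Junb, 0.53 for Klf6, 0.49 for Fos, 0.19 for Ier5, 0.17 for Atf3 and 0.15 for Egr1. Each gene differed from the next in this order by less than the larger of their SDs over the 9 cells, so no pair of neighbours stood apart. Only the first 5 passed the filter of a mean above 1 TPM that was used for the background of all genes (13612 genes, 24.5% of those in the table). Among these, Myc and Ier2 stood at percentiles 66.7 and 61.7 of mean level, Dusp1 and Jun at 32.6 and 31.9, and Junb at 3.77. In single cells, 3 to 6 of the 10 members were above 1 TPM, with 5 to 6 in embryo 1 and 3 to 6 in embryo 2.

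**Figure D1:**
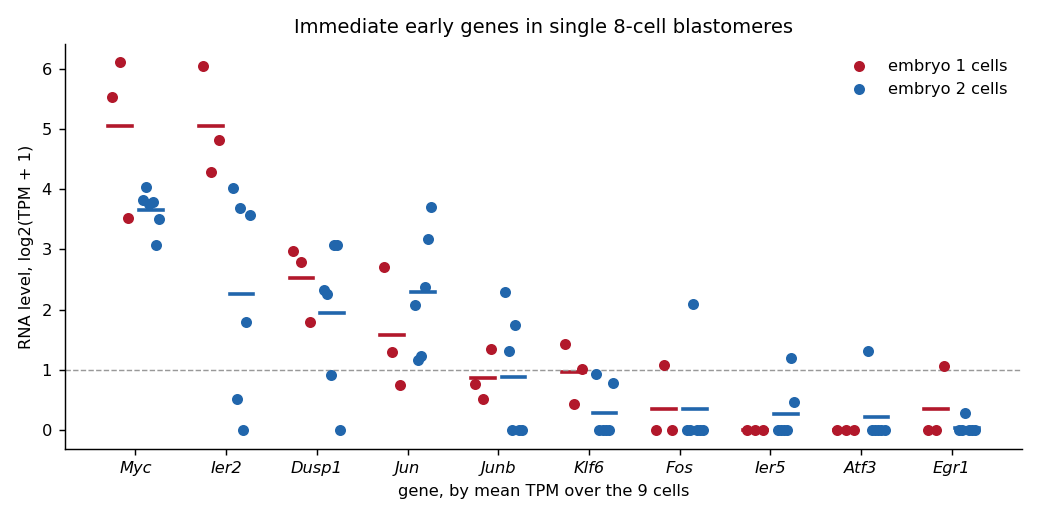
RNA level of each member on the y axis, as log2(TPM + 1), in the 3 cells of embryo 1 (red) and the 6 of embryo 2 (blue), with genes along the x axis in order of mean TPM and short lines at the embryo means. The dashed line is 1 TPM. Ier2 is the gene without overlap between the embryos, and Klf6, Fos, Ier5, Atf3 and Egr1 lie near 0 in most cells.

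Ier2, a short nuclear protein gene of 1 exon (chromosome 8, 84661331 to 84662852, minus strand, mm10), chose the set, and its levels are a description. In embryo 1, the level was 65.3, 18.6 and 27.3 TPM in cells 1, 6 and 7. In embryo 2, it was 15.3, 0.44, 11.9, 0, 2.46 and 10.8 TPM in cells 2, 3, 5, 6, 7 and 8. All embryo 1 cells lay above all embryo 2 cells, but the lowest cell of embryo 1 and the highest of embryo 2 were close, and within embryo 2 the level ran from 0 to 15.3 TPM. The mean log2(TPM + 1) was 5.05 in embryo 1 and 2.27 in embryo 2, a difference of -2.79 beside a pooled SD of 1.55 among cells of an embryo. It was -3.77 within numbers 11 to 17, -2.30 within 20 to 25, and -2.74 after mitochondrial genes were left out of the TPM.

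Ier5, the other member named as an immediate early response gene, encodes a protein linked to heat shock factor activity (chromosome 1, 155096361 to 155099636, minus strand). It was at 0 in the 3 cells of embryo 1 and in 4 cells of embryo 2, with 1.3 TPM in embryo 2 cell 7 and 0.38 TPM in cell 8. Its paralogue Ier5l had 0.47, 10.1 and 4.11 TPM in cells 1, 6 and 7 of embryo 1, and no embryo 2 cell was above 1.53 TPM. The lowest Ier5l level of embryo 1 lay inside the range of embryo 2, and the Ier5l difference was -1.44 (pooled SD 0.85). This difference was 0.15 within numbers 11 to 17 and -2.24 within 20 to 25.

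None of the AP-1 members (Fos, Jun, Junb and Atf3) was at least 1 lower in embryo 2 on the log2 scale. Fos (chromosome 12, 85473890 to 85477273, plus strand) was listed at 0 in 7 of 9 cells, with 1.11 TPM in embryo 1 cell 6 and 3.27 TPM in embryo 2 cell 5, and its difference was -0.01 (pooled SD 0.80). Jun, its usual partner (chromosome 4, 95049034 to 95052222, minus strand), had RNA in every cell. In embryo 1, Jun had 5.51, 1.45 and 0.69 TPM in cells 1, 6 and 7. The levels of embryo 2 were 3.25, 1.24, 1.35, 4.17, 8.03 and 12.1 TPM in cells 2, 3, 5, 6, 7 and 8. The highest cells, 7 and 8 of embryo 2, had 2.46 and 10.8 TPM of Ier2, and the ranges of the embryos overlapped. The difference of Jun was 0.71, smaller than its pooled SD of 1.02, and its sign depended on the number range, with -1.08 within 11 to 17 and 1.60 within 20 to 25. An antisense gene, Junos, overlaps Jun and had at most 1.37 TPM.

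Junb, which lies near Ier2 on chromosome 8 (84974484 to 84978718, minus strand) and encodes a weaker activator than Jun, had 0.70, 0.43 and 1.54 TPM in cells 1, 6 and 7 of embryo 1. In embryo 2, it had 3.88, 1.48, 0, 2.37, 0 and 0 TPM in cells 2, 3, 5, 6, 7 and 8. The embryos overlapped, with both the highest and the lowest cells in embryo 2, and the difference was 0.02 (pooled SD 0.90). It was 1.03 within numbers 11 to 17 and -0.49 within 20 to 25. The annotated end of Junb overlaps Prdx2 on the other strand, which had 14.1 to 121 TPM, and reads of the shared stretch could not be told apart by strand here. The Junb level was all on Junb-201, a single exon of 1809 bases within the annotated span of 4235 bases, and Junb-202 was listed at 0. Atf3, a stress-induced partner of AP-1 proteins (chromosome 1, 191170296 to 191218039, minus strand), was listed at 0 in all cells but embryo 2 cell 2, which had 1.50 TPM.

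Among the zinc finger members, Egr1 (chromosome 18, 34859823 to 34864984, plus strand) was listed at 0 in 7 of 9 cells, with 1.09 TPM in embryo 1 cell 7 and 0.22 TPM in embryo 2 cell 5. Klf6 (chromosome 13, 5861482 to 5870394, plus strand) had 1.69, 0.36 and 1.03 TPM in cells 1, 6 and 7 of embryo 1. In embryo 2, it had 0.92 TPM in cell 2 and 0.73 TPM in cell 8, and it was listed at 0 in the other 4. The embryo 1 cell with the least Klf6 lay below both of these embryo 2 cells. Its difference of -0.68 exceeded its pooled SD of 0.46, at levels that reached 1 TPM in 2 cells only, and it was -2.22 with a pseudocount of 0.1 TPM and -0.19 with one of 5 TPM.

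Myc (chromosome 15, 61985391 to 61990374, plus strand) was the member with a difference nearest to that of Ier2. In cells 1, 6 and 7 of embryo 1 it had 44.9, 67.7 and 10.4 TPM, against 13.2, 15.4, 12.6, 12.8, 7.38 and 10.3 TPM in embryo 2 cells 2, 3, 5, 6, 7 and 8. Cells 1 and 6 of embryo 1 lay above every embryo 2 cell, whereas cell 7 lay within their range, though its Ier2 was higher than that of cell 6. Embryo 2 cells were close to each other in Myc, unlike in Ier2. The mean log2(TPM + 1) was lower in embryo 2 by a difference of -1.38 (pooled SD 0.78). Leaving out embryo 1 cell 6 gave -0.86, and leaving out embryo 1 cell 7 gave -2.15.

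Dusp1, the phosphatase that limits MAP kinase signals (chromosome 17, 26505590 to 26562128, minus strand), had 6.86, 5.94 and 2.47 TPM in cells 1, 6 and 7 of embryo 1. In embryo 2, it had 4.00, 3.81, 0.88, 7.38, 7.46 and 0 TPM in cells 2, 3, 5, 6, 7 and 8. The embryo 2 cells reached both above and below all those of embryo 1. The difference was -0.58, smaller than the pooled SD of 1.10. The annotated span of Dusp1 overlaps Ergic1 on the other strand, which had at most 8.56 TPM.

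Of the 9 members other than Ier2, 1 (Myc) was at least 1 lower on the log2(TPM + 1) scale in embryo 2, and none was at least 1 higher. Among the 13612 genes tested, 10.7% were at least 1 lower and 7.60% at least 1 higher. The sets are unlike: all genes tested had a mean above 1 TPM. Of the 9 members, 5 (Klf6, Fos, Ier5, Atf3 and Egr1) did not, and this scale understates changes at such levels. Among the 4 members that passed the filter, 1 (Myc) was at least 1 lower. No member other than Ier2 had all embryo 2 cells below all embryo 1 cells, as 2.51% of the genes tested had, and none had all embryo 2 cells above, as 0.830% had. The median difference over the 9 was -0.01, against -0.04 over all genes tested. It was 0 within numbers 11 to 17 and -0.46 within 20 to 25, -0.35 without embryo 2 cell 5, and -0.28 over the 4 of these members with a mean above 1 TPM. With a pseudocount of 0.1 TPM, which gives more weight to low levels, this median was -0.83, and 3 of the 9 members and 18.0% of all genes were at least 1 lower. In the other direction, Ier5 had a difference of 1.01 on that scale, from levels of at most 1.3 TPM. Of the 4 members besides Ier2 that passed the filter (Myc, Dusp1, Jun and Junb), 2 were lower and 2 higher in embryo 2. The summed level of the 10 members was 125, 95.6 and 44.5 TPM in cells 1, 6 and 7 of embryo 1 and 22.4 to 42.0 TPM in embryo 2. Without Ier2 and Myc, the sum was between 6.82 and 14.8 TPM in embryo 1 against 5.72 to 16.8 TPM in embryo 2, so the range of embryo 1 lay within that of embryo 2.

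**Figure D2:**
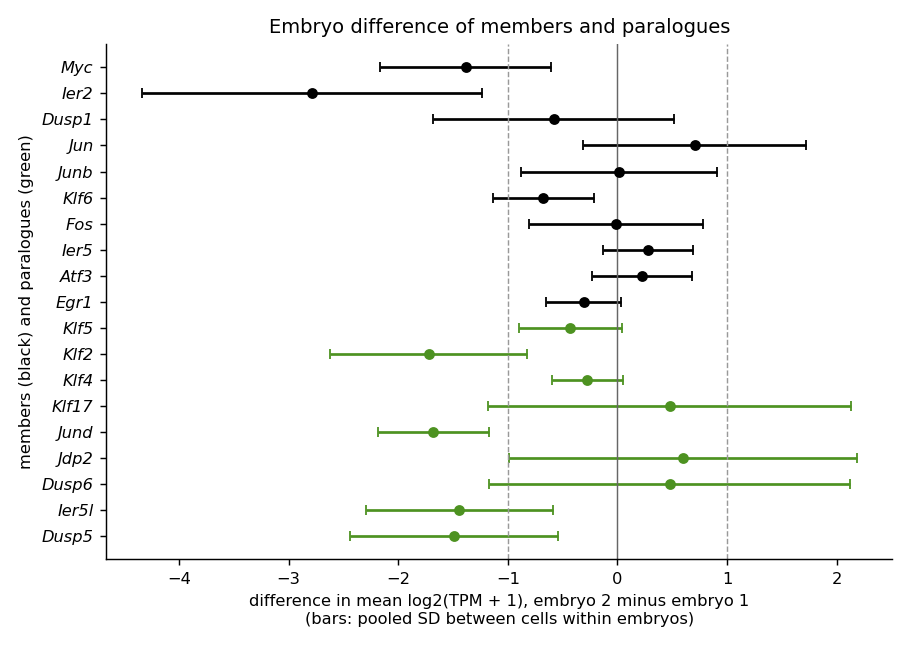
Difference in mean log2(TPM + 1), embryo 2 minus embryo 1, on the x axis for the 10 members (black) and their 9 paralogues with mean TPM > 1 (green), with bars for the pooled SD between cells within embryos and dashed lines at -1 and 1. Ier2 and Myc lie below -1 among members, and Klf2, Jund, Dusp5 and Ier5l among paralogues.

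Because the embryo contrast had chosen Ier2, likeness to Ier2 was described within the 6 cells of embryo 2. Pearson's r of log2(TPM + 1) with Ier2 was -0.14 for Myc (Spearman's rho -0.086), 0.15 for Jun (rho -0.029), -0.25 for Junb (rho -0.030) and -0.65 for Dusp1 (rho -0.37). Between the percentiles 5 and 95 of all genes tested, r ran from -0.67 to 0.75, and the value of Dusp1 lay close to the lower of these bounds. Leaving out 1 cell at a time gave r from -0.52 to 0.16 for Myc, -0.15 to 0.45 for Jun, -0.89 to 0.02 for Junb and -0.84 to -0.53 for Dusp1, and the lowest values of Junb and Dusp1 were those without embryo 2 cell 2. When the 2 cells farthest from the median of Ier2 were left out, r was 0.96 for Myc, -0.45 for Jun, 0.50 for Junb and -0.58 for Dusp1 over 4 cells, and the sign of 3 of the 4 thus rested on those cells. The other 5 members had RNA in 1 or 2 of these cells, too few for a value. These cells share an embryo and the fixed sum of TPM, and 2 of the 6 were lysed by another protocol than the other 4.

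The genes whose pattern over the 9 cells was most like that of Ier2 were Eps8l2, Pwwp2b, Enpep, Adcy3 and Mrpl16, among 11118 genes above 1 TPM in at least 5 cells. They were chosen by Pearson's r over all cells (0.92 to 0.96), which holds the embryo difference, and r within embryo 2 alone was 0.87 to 0.93. The embryo 2 cells were among those that chose the genes, so the likeness within embryo 2 was partly selected too. Adcy3, an adenylate cyclase, was between 5.65 and 8.43 TPM in embryo 1 against 0 to 2.39 TPM in embryo 2. Enpep, a membrane aminopeptidase, was between 12.8 and 97.5 TPM in embryo 1 against 0 to 22.7 TPM in embryo 2. Eps8l2 was at 4.27 to 6.06 and 0 to 2.19 TPM, Pwwp2b at 11.2 to 17.6 and 0 to 6.61 TPM, and Mrpl16, a mitochondrial ribosome protein gene, at 19.2 to 33.8 and 3.77 to 28.3 TPM. No member of the set was among the 5. The nearest gene was Tob1 for Jun, Cdkn1a for Junb, Tpd52 for Myc and Gon7 for Dusp1, with r over the 9 cells of 0.96, 0.96, 0.94 and 0.96. Each was picked as the highest value among all genes compared, so a high r follows from the choice. Tob1, an antiproliferative gene of the wider immediate early list, ran from 0.48 to 6.09 TPM in embryo 1 and from 0.60 to 16.95 TPM in embryo 2.

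Of 20 paralogues of members, 9 had a mean above 1 TPM. Of these, 4 were at least 1 lower in embryo 2 (Klf2, Jund, Dusp5 and Ier5l), which is 44.4% beside 10.7% of all genes tested, and none was at least 1 higher, beside 7.60%. Dusp5 and Ier5l passed the filter only through embryo 1, with mean levels of 4.58 and 4.89 TPM there and 0.615 and 0.66 TPM in embryo 2. The median difference of the 9 was -0.43, but it was 0.15 within numbers 11 to 17 and -0.49 within 20 to 25, and it ran from -0.65 (without embryo 1 cell 7) to -0.17 (without embryo 1 cell 6) when 1 cell was left out. Whether paralogues differ from members was not tested. Jund, the Jun family gene that is transcribed at rest in many cell types, had 25.9, 32.9 and 24.8 TPM in cells 1, 6 and 7 of embryo 1. In embryo 2, it had 7.23, 11.7, 5.80, 9.68, 3.83 and 13.1 TPM in cells 2, 3, 5, 6, 7 and 8. The embryos did not overlap, and the gap between them was wide beside the spread within each, with a difference of -1.68 (pooled SD 0.51), -1.40 within numbers 11 to 17 and -1.82 within 20 to 25. An antisense gene, Gm11175, overlaps Jund and had 0 to 11.7 TPM, with embryo 2 cell 5 highest, and its reads could not be told apart by strand here.

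Klf2, a zinc finger factor of the network that keeps pluripotency, was the most abundant of the non-overlapping paralogues. In embryo 1, the level was 138, 124 and 109 TPM in cells 1, 6 and 7. In embryo 2, it was 67.2, 22.8, 10.5, 74.4, 59.99 and 32.1 TPM in cells 2, 3, 5, 6, 7 and 8. Every embryo 1 cell was above every embryo 2 cell, with a difference of -1.72 (pooled SD 0.90), -1.79 within numbers 11 to 17 and -1.69 within 20 to 25. Within embryo 2 the order of cells by Klf2 was not that by Ier2: cell 6 had the most Klf2 and no Ier2. Klf5 and Klf4, the other abundant Klf genes, had differences of -0.43 and -0.27, below their pooled SDs of 0.47 and 0.32. Jdp2, a repressor that binds AP-1 sites, had the highest difference among the 9 paralogues with a mean above 1 TPM, 0.60 (pooled SD 1.59). Fosb, Fosl1, Egr2, Egr3, Egr4 and Mycn were listed at 0 in every cell.

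**Figure D3:**
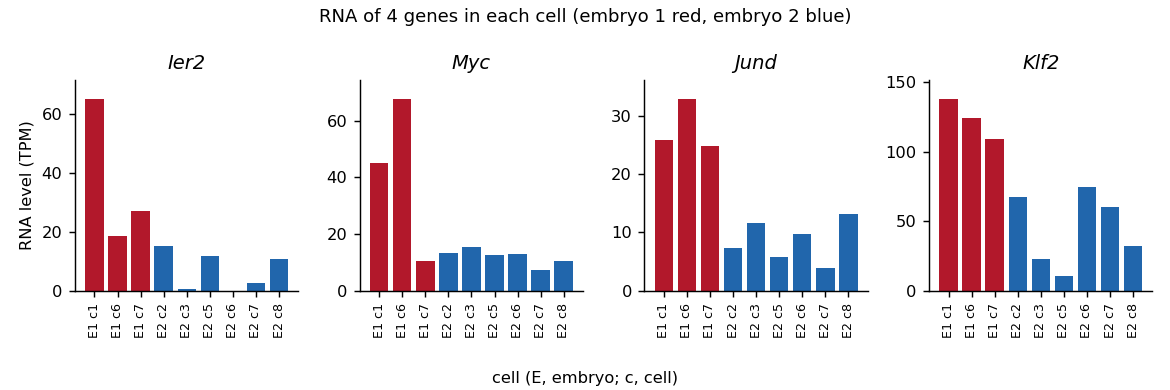
RNA level (TPM, y axis from 0, a scale of its own for each gene) of Ier2, Myc, Jund and Klf2 in each cell on the x axis, embryo 1 in red and embryo 2 in blue. All embryo 1 bars are above all embryo 2 bars for Ier2, Jund and Klf2, whereas Myc in embryo 1 cell 7 (10.4 TPM) lies within the range of embryo 2.

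The wider list held 45 other immediate early genes, of which 31 had a mean above 1 TPM and 6 were listed at 0 in every cell. Of the 31, 8 were at least 1 lower in embryo 2 (25.8%, beside 10.7% of all genes tested): Klf2, Jund, Nfkbia, Ppp1r15a, Dusp5, Id1, Ier5l and Klf10. Id1 and Ier5l changed sign, with 0.59 and 0.15 within numbers 11 to 17 and -2.47 and -2.24 within 20 to 25. The other genes of these 8 were lower in both ranges. Id1 had 73.55 TPM in embryo 1 cell 7, against 2.83 and 1.73 TPM in cells 1 and 6. At least 1 higher were 4 (beside 7.60% of all genes tested): Plk2, Btg1, Ccn2 and Gadd45b. Dusp5 and Ier5l passed the filter only through embryo 1, and Ccn2 and Gadd45b only through embryo 2. Klf2, Jund, Dusp5 and Ier5l are also the paralogues counted above, so the shares of these lists are not separate observations. All embryo 2 cells were below all embryo 1 cells for 3 genes (9.68%, beside 2.51% of all genes tested): Klf2, Jund and Nfkbia, the inhibitor of NF-kappaB, which was between 29.5 and 42.2 TPM in embryo 1 against 0 to 26.5 TPM in embryo 2. The median difference of the list was 0.01, and 15 genes were lower and 16 higher, with a median of -0.04 over all genes tested. Without embryo 1 cell 7, the median of the list was -0.42. Plk2, a polo-like kinase, had the highest difference, 1.47 (pooled SD 1.32), between 0 and 3.60 TPM in embryo 1 against 0 to 12.4 TPM in embryo 2. The sign for Plk2 depended on the number range, with -0.89 within 11 to 17 and 2.65 within 20 to 25. So did that for Btg1, with -2.47 and 3.18, whereas Ccn2 and Gadd45b were higher in embryo 2 in both ranges. The most abundant genes of the list overlapped between embryos: Id3, an inhibitor of helix-loop-helix factors, had a difference of -0.40 (pooled SD 0.42), Ifrd1 of 0.63 (pooled SD 0.47) and Mcl1, a survival factor, of 0.03 (pooled SD 0.30).

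Upstream of these genes, 25 of 26 kinases and factors had a mean above 1 TPM. Their median difference was -0.14, and 1 of the 25, Mapk3 (the MAP kinase ERK1), was at least 1 lower (4%, beside 10.7% of all genes tested) and none at least 1 higher (beside 7.60%). Mapk3 had 7.19, 5.54 and 16.3 TPM in cells 1, 6 and 7 of embryo 1, and embryo 2 cells ranged from 0.36 to 4.65 TPM. Its cells did not overlap, although 5.54 and 4.65 TPM were close, and its difference was -1.59 (pooled SD 0.81). Map2k2, the kinase above it, had a difference of -0.27 (pooled SD 0.52), and the histone acetyltransferase gene Ep300 one of 0.73 (pooled SD 1.09). The CREB relative Atf1 was between 67.3 and 107 TPM in embryo 1 against 88.5 to 151 TPM in embryo 2, with a difference of 0.63 (pooled SD 0.30). The ETS factor Elk3 had the highest difference of the list, 0.96 (pooled SD 0.86), with a maximum of 0.52 TPM in embryo 1 and 4.25 TPM in embryo 2. It passed the filter only through embryo 2.

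Of 11 genes listed under AU-rich mRNA decay, 10 had a mean above 1 TPM, with a median difference of 0.06. This median ran from -0.25 without embryo 1 cell 7 to 0.27 without embryo 1 cell 1. At least 1 lower were 2 of them (20%, beside 10.7% of all genes tested), and none was at least 1 higher (beside 7.60%). Zfp36l2, which recruits the deadenylase complex, was between 25.02 and 46.7 TPM in embryo 1 against 1.03 to 43.8 TPM in embryo 2, with a difference of -1.90 (pooled SD 1.32), and 1 embryo 2 cell (cell 7) reached the range of embryo 1. Tia1 was between 3.37 and 5.94 TPM in embryo 1 against 0 to 3.82 TPM in embryo 2, a difference of -1.63. Hnrnpd, Cnot1 and Cnot7, the most abundant of the list, had differences of 0.27, 0.09 and 0.32, each below its pooled SD.

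All 10 heat shock genes had a mean above 1 TPM, and their median difference was 0.34, with 9 higher and 1 lower in embryo 2. Without embryo 1 cell 1, the median was 0.10. Hspb1, a small heat shock protein gene, was at least 1 higher (1.07, pooled SD 1.05) and Hspa1b, an inducible chaperone gene, at least 1 lower (-1.20, pooled SD 1.68), each 10% of the list beside 7.60% and 10.7% of all genes tested. The Hspa1b difference was 0.73 within numbers 11 to 17 and -2.17 within 20 to 25. Hspa1a had a difference of 0.85 (pooled SD 1.41), with 3.19 within 11 to 17 and -0.32 within 20 to 25. Hspa8, Hsp90ab1 and Hsp90aa1, the most abundant chaperone genes of the list, differed by 0.11, 0.05 and 0.25, below their pooled SDs. Hspa1b was at 93.4 TPM in embryo 1 cell 6, the cell with the most Myc, and at 7.86 TPM in embryo 1 cell 1, the cell with the most Ier2.

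**Figure D4:**
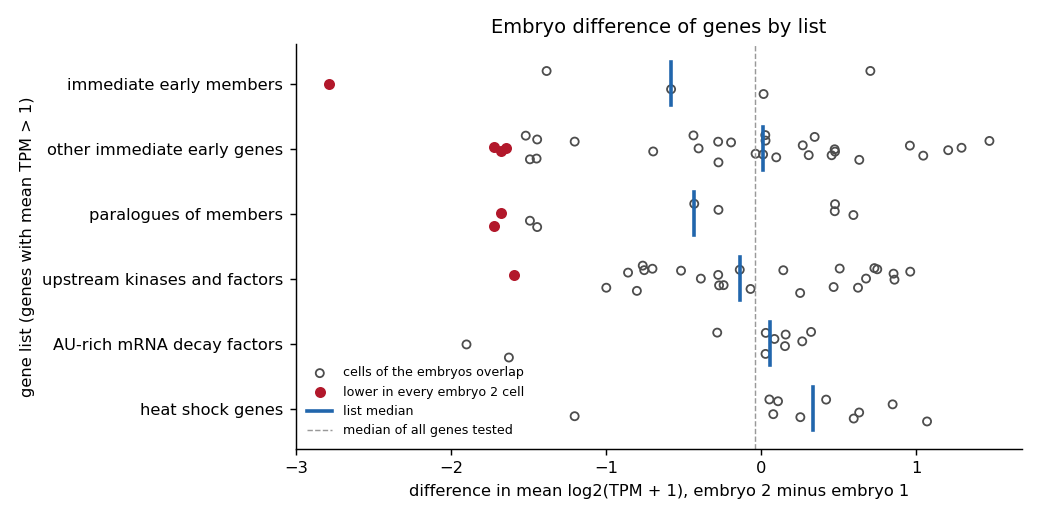
Difference in mean log2(TPM + 1), embryo 2 minus embryo 1, on the x axis for the genes of 6 lists with mean TPM > 1, 1 point per gene and vertical jitter only for display. Filled red points are genes lower in every embryo 2 cell, blue lines are list medians and the dashed line is the median of all genes tested (-0.04). Non-overlapping genes lie in 4 of the lists, and Jund and Klf2 are in both the second and the third.

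The transcript table shows which annotated form carried the RNA. Ier2, Ier5 and Jun have 1 transcript each, without introns. For Fos, all of the TPM was on Fos-201, the coding form, Junb lay wholly on Junb-201, and Egr1 on Egr1-202. The Atf3 value of embryo 2 cell 2 was on Atf3-202, a processed transcript of 517 bases that carries no coding sequence in the annotation, and the coding Atf3 forms were listed at 0 in every cell. Of the Klf6 signal, 71.9% over the cells was on the coding Klf6-201 and 28.3% on Klf6-202, an intron-holding form. Dusp1 was carried by the coding forms Dusp1-206 (86.9%) and Dusp1-202 (13.1%), and its intron-holding forms were listed at 0.

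Myc was spread over 6 annotated coding forms. The form Myc-204, of 2 exons and 1765 bases, held 43.0% of the level over the cells and was between 10.4 and 24.4 TPM in embryo 1 against 0 to 12.6 TPM in embryo 2. In embryo 1 cell 7 and embryo 2 cells 5 and 7, it was the only form above 0. Myc-202, of 3 exons, was at 8.20 and 33.0 TPM in cells 1 and 6 of embryo 1, at 0.16 and 6.37 TPM in embryo 2 cells 2 and 6, and at 0 in the other cells. The higher Myc level of embryo 1 cells 1 and 6 was thus found on several forms. The division among overlapping forms is the estimate of RSEM, and the sums over forms equalled the gene values within 0.01 TPM.

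**Figure D5:**
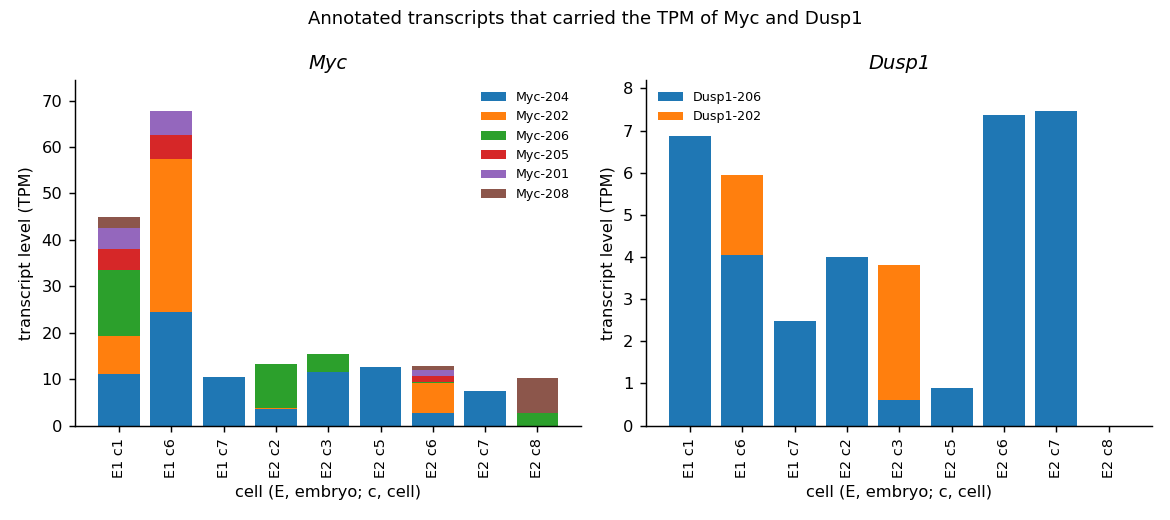
Level (TPM, y axis from 0) of the annotated transcripts of Myc (left) and Dusp1 (right) in each cell on the x axis, stacked by transcript. Myc-204 alone makes up the bar of embryo 1 cell 7 (10.4 TPM), and several forms make up those of embryo 1 cells 1 and 6.

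The DNA of the same cells gave the replication state of each member's 40 kb bins. All 10 members were unreplicated in all 3 embryo 1 cells by the called state, which cannot separate cells before replication from cells after it. In embryo 2, 58 of 60 pairs of member and cell were replicated, and 8 members were replicated in 6 of 6 cells. Jun and Atf3 were unreplicated in embryo 2 cell 6 and replicated in the other 5. Of all genes tested with a bin, 72.9% were replicated in 6 of 6 cells. Ier2, Myc, Jund and Klf2 were replicated in every embryo 2 cell, so the levels of Ier2 from 0 to 15.3 TPM among these cells came with 1 and the same replication state. Ier2 and Junb lie on chromosome 8 with Jund and Klf2, and the median difference of the 702 tested genes of that chromosome was -0.05, against -0.04 over all genes.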

How the data were processed

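scRR-seq-RNA and scRR-seq-DNA of 9 blastomeres from 2 embryos were analysed. The authors set RNA reads to a common number, aligned them with Hisat and deposited gene and transcript TPM values from RSEM on GENCODE M25 within ramdaq. The deposited replication score is 1, -1 or 0 per bin of 40 kb on mm10, called with AneuFinder after alignment with bwa (BWA 0.7.17-r1188 in the submitters' processing notes). TPM keeps no read depth, so no counting interval was computed. All RNA headers carry 1 embryo and cell name, so RNA columns were matched to titles by their closing number. Each table also held 14 columns that carry no label of this series, which were not used, and 4 of the 13 labelled cells were not analysed here.

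Each embryo is 1 biological replicate and each sample 1 cell, so differences were described with no p-value. The measure was the mean log2(TPM + 1) of embryo 2 minus that of embryo 1, beside the pooled SD between cells. This scale understates changes of genes with low TPM. Genes of the nuclear genome with mean TPM > 1 (13612 genes) formed the background. Symbols matched 55141 of 55487 gene identifiers. Positions came from GENCODE M21 on GRCm38, the same build as mm10, and promoter windows from RefSeq. Where a gene spans several bins, their mean set its state.

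Members, gene lists, measures and alternatives were chosen with earlier results of these data known. All members were named, with the 5 genes most like Ier2 and the nearest gene of each other member with mean TPM > 1. Of each list, the 3 genes with the highest mean TPM and the genes of the lowest and highest difference were named. The difference script was tested on simulated data. Python 3.11.15, numpy 2.4.6, pandas 2.3.3, scipy 1.17.1 and matplotlib 3.10.9 were used.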

Additional observations from a re-analysis of the deposited data

Results flagged for a closer look

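In embryo 2, 3 of the 10 members had 1 cell far from the other 5. The Fos level was 3.27 TPM in embryo 2 cell 5 and was listed at 0 in the other cells of that embryo. The Egr1 level was 0.22 TPM in the same cell and was listed at 0 in the others. The Atf3 level was 1.50 TPM in embryo 2 cell 2 and was listed at 0 in the others. Where all cells but 1 are at 0, the gap equals the whole range at any level, however low. The usual rate, about 1 in 20 groups by chance, therefore does not apply to genes that are mostly at 0.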

How the results depend on the processing

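Each embryo gave 1 biological replicate, so every difference rests on 2 embryos, and embryo, replication and sex-linked RNA cannot be told apart. TPM keeps no depth, and whether a level listed at 0 was missed could not be told. No paired analysis was possible because cell numbers only name cells and no test was run. The differences of Ier2, Myc, Jund and Klf2 stayed negative under all 16 alternatives tried. For Ier2, Jund and Klf2, whose embryos did not overlap, leaving out cells or changing the pseudocount could not have changed the sign. Ier2 had also been chosen by this contrast. With a pseudocount of 0.1 TPM, the median over the 9 members other than Ier2 was -0.83, 3 of these members were at least 1 lower, and so were 18.0% of all genes tested. With a pseudocount of 5 TPM, 5 other immediate early genes and 3.50% of all genes were at least 1 lower. Within numbers 11 to 17 (1 cell against 2), 2 members other than Ier2 were at least 1 lower beside 17.04% of genes, and 4 did not overlap beside 37.2% of genes. Within numbers 20 to 25, 8.70% of genes were lower in every embryo 2 cell. Among genes with mean TPM > 5, the median of the upstream kinases and factors was 0.20. Leaving out each cell in turn gave, among members other than Ier2, 0 to 1 at least 1 lower and 0 to 1 that did not overlap. It gave 5 to 9 other immediate early genes at least 1 lower, upstream medians from -0.25 to 0.28, and 2.91% to 5.98% of genes lower in every embryo 2 cell. Without embryo 1 cell 6, Myc was no longer at least 1 lower, 5 other immediate early genes were, and Klf6 did not overlap. Without embryo 1 cell 7, Myc did not overlap. Without embryo 1 cell 1, the upstream median was positive. The cause of these shifts was not tested.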
